A study of Mus musculus with 6 samples.

Results

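The enzymes and complexes that set, remove and read histone acetylation were followed through 47 genes in mouse cells exposed to TSA (trichostatin A), a compound that blocks deacetylases. The genes were chosen by name, with earlier results of these samples known: 10 histone deacetylases (HDACs), 7 sirtuins, 9 lysine acetyltransferases, 2 bromodomain readers and 19 subunits of corepressor complexes. All 47 had at least 1 probe on the arrays, 75 probes in all, and all 47 entered the test, out of 14527 tested genes and 18749 named genes. Hdac1 was not analysed here.

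The cells were embryonic stem cells of 129/Ola mice that had been plated on gelatin and differentiated in serum-free N2B27 medium, and are labelled as day 3 cells. The control group received the solvent DMSO for 24 h and the other group received TSA for 24 h, with 3 samples in each, 1 from each of 3 separate experiments. The labels give no dose of TSA and no genetic change in either group. Total RNA of each sample was hybridised to 1 single-colour Agilent array.

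Acetyl groups on histone tails are added by acetyltransferases and removed by deacetylases, and bromodomain proteins such as the BRD family bind the acetylated tails. Zinc-dependent HDACs are the enzyme family that TSA blocks. Of those measured here, Hdac2 and Hdac3 act mostly inside large complexes: Sin3, NuRD (nucleosome remodelling and deacetylase), CoREST and NCoR. These complexes are brought to genes by repressors. Sirtuins are deacylases that need NAD and lie outside the reach of TSA. In embryonic stem cells, NuRD and CoREST subunits are known for their part in leaving the pluripotent state.

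Of the 43379 non-control spots, the software marked 61.1% to 72.3% per array as well above background and 0 as saturated. The 75th percentile of signal was 310 intensity units on TSA replicate 2 and 632 to 924 on the other 5 arrays. Spike-in control probes averaged 3.00 log2 units above that percentile on TSA replicate 2 and 1.03 to 1.60 on the other 5. TSA replicate 2 correlated at 0.931 and 0.939 with the other TSA arrays, against 0.984 to 0.990 for the other pairs of 1 group, and carries a weight of 0.0949 where limma weighs arrays, against 1.15 to 2.43 for the others. Each slide held both samples of an experiment, with DMSO at position 3 and TSA at position 4, so treatment and position cannot be told apart. All 31 marker genes entered the test (6 pluripotency, 4 epiblast, 6 neural progenitor, 5 mesendoderm, 4 endoderm and 6 fibroblast genes), and all but Gata4 and Postn were above background on all 6 arrays. Without the slide as a block 0 of them passed the test, and with it Mixl1 and Evx1 of the mesendoderm list and Col1a2 of the fibroblast list rose. The fibroblast list did not move one way. The means were higher for 4 of its 6 genes, with Col1a1 at 2.72 and Col1a2 at 1.77, both with all TSA arrays above DMSO. Dcn was at -0.91 with all TSA arrays below DMSO, and Postn at -0.84. The part of such cells in the results was not tested. Fewer cells of a type and less RNA per cell cannot be told apart in such samples.

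In TSA, 0 of the 47 genes rose and 0 fell (limma, Benjamini-Hochberg adjusted p under 0.05 over all probes tested), where 1.36% of all tested genes rose and 0.0551% fell. The same held with the slide as a block, where 3.20% of all tested genes rose and 0.145% fell. The lowest adjusted p among the 47 was 0.187 without the block, for Hdac8, and 0.108 with it, for Sirt4. At an unadjusted p under 0.05, 3 genes stood out without the block (6.38%, against 14.9% of all tested genes) and 8 with it (17.0%, against 22.9%). The 3 were Hdac8, a class I deacetylase, Sirt4, a mitochondrial sirtuin, and Crebbp, the acetyltransferase CBP. With the block, Hdac11, Sirt1, Sirt2, Kat2b and Ncor1 were added to these.

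Each difference is the TSA mean less the DMSO mean in log2 units, over 3 arrays per group. Standard errors and intervals are from the fit without the slide as a block unless stated. They ran from -0.83 for Sirt1 to 0.95 for Sirt4, with a median of 0.04 over the 47 genes against 0.08 over all tested genes. A difference past 1, which is 2-fold, was seen for 0 members and for 10.2% of all tested genes. For 30 members (63.8%) the 95% interval of the difference lay inside 1 on both sides, against 47.5% of all tested genes. The other 17 could have changed by more than 2-fold at the precision of this fit, which leaves the slide pairing out. With the slide as a block, intervals inside 1 were also reached by Hdac2 (-0.98 to 0.07), Hdac5 (-0.33 to 0.85), Kat6a (-0.98 to 0.20), Mbd3 (-0.96 to 0.52) and Gatad2b (-0.94 to 0.27). The mean was higher in TSA for 25 members (53.2%, against 58.0% of all tested genes) and lower for 22. The TSA arrays lay all above the DMSO arrays for 6 members (12.8%, against 16.3% of all tested genes) and all below for 6 (12.8%, against 8.36%). The direction was the same on all 3 slides for 12 members upward and 12 downward, each 25.5%, against 32.5% and 21.5% of all tested genes. Several of these shares rest on few members, and whether they differ from those of all tested genes was not tested.

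**Figure D1:**
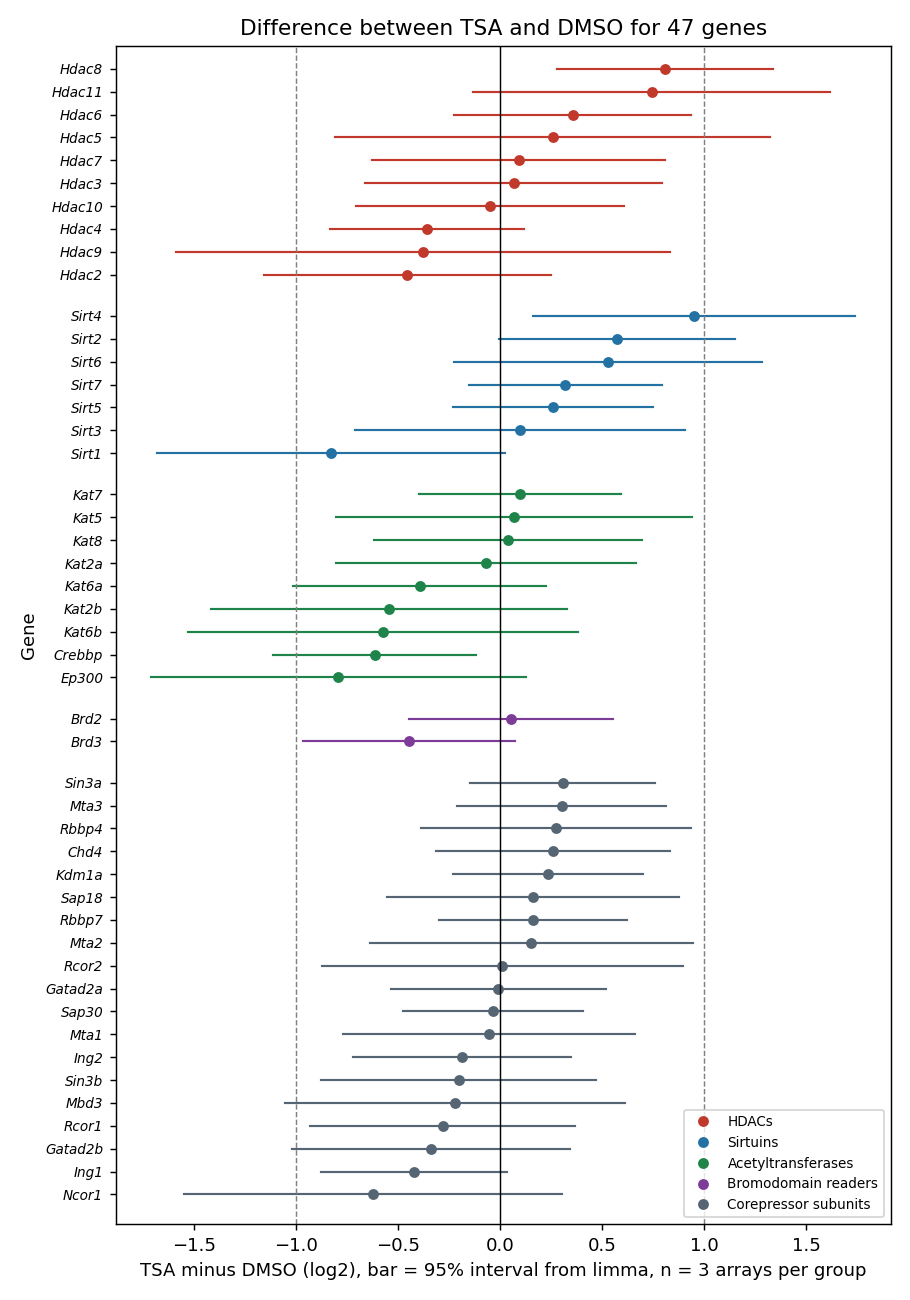
Difference between TSA and DMSO for each of the 47 genes (x axis, log2; points, fitted difference; bars, 95% interval from limma, n = 3 arrays per group; dashed lines, 2-fold). All points lie between -0.83 and 0.95, and the intervals of Hdac8, Sirt4 and Crebbp leave out 0 before adjustment.

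**Figure D2:**
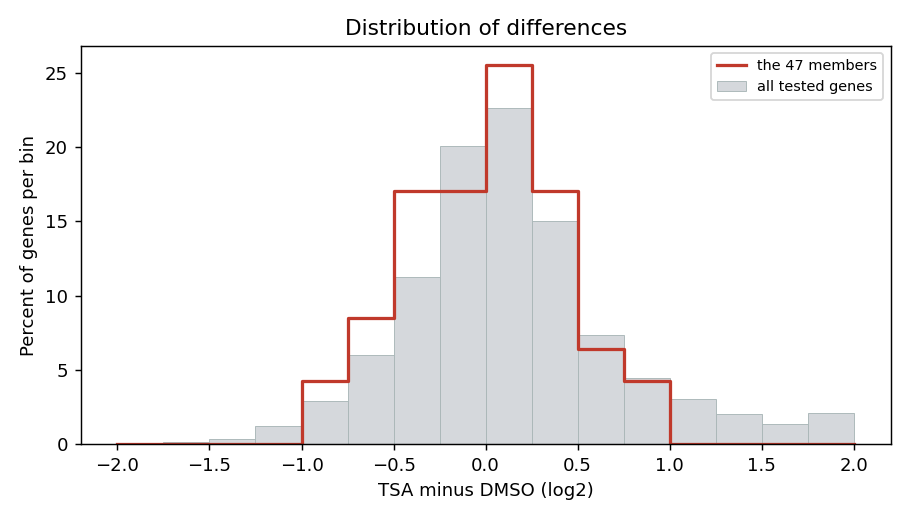
Share of genes per bin of the difference between TSA and DMSO (x axis, log2; y axis, percent), with all 14527 tested genes as grey bars, the 47 members as a red line and values past 2 on either side placed in the end bins. The members lie inside 1 on both sides, whereas 10.2% of all tested genes lie beyond it.

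The sequences just before the start sites of Hdac8, Sirt4 and Crebbp are shown because these are the 3 genes with the smallest unadjusted p. They are the 250 bases before the RefSeq start (GRCm38.p6), all 3 on the minus strand and printed 5′ to 3′ along the gene: chrX:102505159-102505408 for Hdac8, chr5:115484298-115484547 for Sirt4 and chr16:4213405-4213654 for Crebbp. Capitals mark matches on either strand to GGGCGG for the GC box, to the letters that name the CCAAT box, to CCGGAAG for the ETS core, to the NRF1 core, to TGACGTCA for the CRE (cyclic AMP response element) or to TATAAA for the TATA box. Matches that overlap run together.
Hdac8: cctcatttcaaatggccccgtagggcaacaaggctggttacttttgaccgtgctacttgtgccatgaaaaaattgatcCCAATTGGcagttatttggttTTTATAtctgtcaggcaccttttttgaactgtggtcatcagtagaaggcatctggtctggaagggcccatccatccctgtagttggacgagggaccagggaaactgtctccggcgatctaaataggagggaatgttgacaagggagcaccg
Sirt4: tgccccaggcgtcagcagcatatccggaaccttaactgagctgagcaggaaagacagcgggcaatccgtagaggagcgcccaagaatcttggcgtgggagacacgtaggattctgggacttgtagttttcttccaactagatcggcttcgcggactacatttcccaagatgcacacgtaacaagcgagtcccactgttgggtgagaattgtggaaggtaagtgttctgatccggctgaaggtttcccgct
Crebbp: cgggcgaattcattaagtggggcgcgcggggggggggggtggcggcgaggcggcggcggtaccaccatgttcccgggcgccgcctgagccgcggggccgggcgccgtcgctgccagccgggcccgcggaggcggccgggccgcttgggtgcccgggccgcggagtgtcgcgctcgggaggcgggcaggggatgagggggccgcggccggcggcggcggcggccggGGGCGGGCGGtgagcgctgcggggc

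The 3 windows differ in composition. Crebbp has a GC content of 84.0%, 44 CpG pairs and 2 overlapping GC boxes, Hdac8 has a GC content of 48.4%, 6 CpG pairs, 2 overlapping CCAAT matches and 1 TATA match, and Sirt4 has a GC content of 53.2%, 14 CpG pairs and 0 matches to these motifs. Of the 47 genes, 43 had such windows in the RefSeq table, 64 windows in all, because some genes have several starts. Their median was 18 CpG pairs and a GC content of 61.6%, against 14 pairs and 59.2% for the 14680 windows of tested genes. A GC box was present in 70.3% of member windows and 54.9% of windows of tested genes (32.7% of all 32851 windows), a CCAAT box in 43.8% and 35.0% (33.8% of all), and an NRF1 core in 14.1% and 7.04% (3.74% of all). An ETS core was present in 10.9% of member windows and 11.8% of those of tested genes (6.91% of all), a TATA box in 9.38% and 7.61% (12.4% of all), and a CRE in 0 member windows and 2.43% (1.55% of all). A match says only that these letters are in the window.

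Among the zinc-dependent HDACs, 6 of 10 had a higher mean in TSA (60%, against 58.0% of all tested genes) and 4 a lower one. Their median difference was 0.08 (-0.01 with median centring and -0.14 without TSA replicate 2), and 0 rose or fell. Levels are log2 units relative to the 75th percentile of the array and are compared only within a gene. Hdac8, the class I enzyme that works outside the large complexes, was at -2.39, -2.59 and -2.72 on DMSO arrays 1, 2 and 3 and at -1.91, -1.47 and -1.90 on the TSA arrays. All 3 TSA arrays lay above all 3 DMSO arrays, and the difference was 0.81 ± 0.22 (standard error; 1.75-fold, 95% interval 0.28 to 1.34, adjusted p = 0.187, and 0.130 with the block). Its other probe gave 0.79. With array weights Hdac8 passed (adjusted p = 0.0437), in a fit that called 1348 of all 28160 tested probes higher. Over all 17 fitted alternatives its adjusted p ran up to 0.572 and its difference from 0.43 to 0.90.

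Hdac11, the sole class IV enzyme, was at -3.62, -3.34 and -3.80 in DMSO and at -3.10, -2.08 and -3.36 in TSA. TSA replicate 2 was the highest of the 6 arrays, and TSA replicate 3 lay within the DMSO range. The difference was 0.74 ± 0.37 (adjusted p = 0.512, and 0.190 with the block), and 0.36 without TSA replicate 2. Hdac11 was higher in TSA by 0.53, 1.26 and 0.45 on slides 1, 2 and 3. Hdac6, a mostly cytoplasmic enzyme that deacetylates tubulin, was at 2.77, 2.71 and 2.53 in DMSO and at 2.89, 3.43 and 2.77 in TSA, a difference of 0.36 ± 0.24 with groups that overlap (0.16 without TSA replicate 2). Hdac10, the related class IIb enzyme that deacetylates polyamines, gave -0.05 ± 0.27.

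The 2 class I enzymes measured here that form the catalytic core of corepressors had intervals that include 0. Hdac2, found in Sin3, NuRD and CoREST, was at -1.52, -1.74 and -1.37 in DMSO and at -1.88, -2.53 and -1.58 in TSA (-0.45 ± 0.29, 95% interval -1.16 to 0.25, adjusted p = 0.611). It was lower in TSA on all 3 slides, the groups overlap, and the difference was -0.18 without TSA replicate 2 and -0.66 without TSA replicate 3. Hdac3, the enzyme of NCoR, gave 0.07 ± 0.30 (95% interval -0.66 to 0.79), and its sign turned with median centring and without TSA replicate 2.

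The class IIa enzymes shuttle between nucleus and cytoplasm and bind MEF2 factors. Hdac4 was lower on all TSA arrays (0.25, -0.08 and 0.16) than on all DMSO arrays (0.59, 0.41 and 0.40), with a difference of -0.36 ± 0.20 (adjusted p = 0.562). Hdac5 gave 0.26 ± 0.45 and Hdac7 0.09 ± 0.30, and without TSA replicate 2 both signs turned (-0.21 and -0.10). Hdac9 was 1 of 2 members whose tested probes differed in sign: the probe used for the gene gave -0.38, with -4.67 on TSA replicate 2 against -2.75 and -2.98 on the other TSA arrays, and the second probe gave 0.33. The other such member was Gatad2a, at -0.01 and 0.10.

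Sirtuins had higher means in TSA for 6 of 7 members (85.7%, against 58.0% of all tested genes). Their median difference was 0.32 (0.23 to 0.33 under the scaling alternatives), and 0 rose or fell. Sirt4, a mitochondrial sirtuin that restrains glutamine use, was at -2.02, -2.22 and -1.26 in DMSO and at -0.67, -1.30 and -0.68 in TSA. TSA replicate 2 lay just below the highest DMSO array, so the groups touch, and the difference was 0.95 ± 0.33 (1.93-fold, 95% interval 0.16 to 1.74, adjusted p = 0.308, and 0.108 with the block). Sirt4 was higher in TSA by 1.35, 0.92 and 0.59 on slides 1, 2 and 3. With array weights Sirt4 passed (adjusted p = 0.0472), in the same fit that called 1348 of all 28160 tested probes higher. Over the 17 fitted alternatives its difference ran from 0.62 to 1.24 and its adjusted p up to 0.809.

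Sirt1, the nuclear sirtuin that deacetylates p53 and histones, was the 1 sirtuin with a lower mean. It was at 1.57, 1.24 and 1.38 in DMSO and at 0.99, -0.21 and 0.91 in TSA, with all TSA arrays below all DMSO arrays. The difference was -0.83 ± 0.36 (1.78-fold higher in DMSO, adjusted p = 0.439, and 0.184 with the block), and its other probe gave -1.14. Without TSA replicate 2 the difference was -0.44.

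Sirt2, a cytoplasmic sirtuin that acts on tubulin, was at 0.83, 0.97 and 0.78 in DMSO and at 1.25, 1.84 and 1.21 in TSA. All TSA arrays lay above the DMSO arrays, and the difference was 0.57 ± 0.24 (adjusted p = 0.423, and 0.211 with the block). Its 3 probes gave 0.55 to 0.57. Sirt6, a chromatin-bound sirtuin of DNA repair and glycolysis control, was at -3.96, -3.59 and -3.88 in DMSO and at -3.55, -2.65 and -3.65 in TSA, a difference of 0.53 ± 0.32 (adjusted p = 0.592) that became 0.21 without TSA replicate 2. Sirt7, a nucleolar sirtuin, gave 0.32 ± 0.20 and Sirt5, a mitochondrial desuccinylase, 0.26 ± 0.21, both with all TSA arrays above the DMSO arrays. Sirt3, the main mitochondrial deacetylase, gave 0.10 ± 0.34 and turned sign without TSA replicate 2.

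Acetyltransferases had lower means in TSA for 6 of 9 members (higher means for 33.3%, against 58.0% of all tested genes). Their median difference was -0.39 (-0.49 to -0.21 under the scaling alternatives), and 0 rose or fell. On slide 1 all 9 were lower in TSA, by 0.13 to 0.67, and on slides 2 and 3 the class medians were -0.59 and -0.20. Crebbp, which acetylates histone H3 and many factors, was at -2.09, -2.45 and -2.40 in DMSO and at -2.76, -3.04 and -2.99 in TSA. The groups did not overlap, the differences on slides 1, 2 and 3 were -0.67, -0.59 and -0.58, and the difference was -0.61 ± 0.21 (1.53-fold higher in DMSO, 95% interval -1.11 to -0.12, adjusted p = 0.293, and 0.154 with the block). Over the 17 fitted alternatives it ran from -0.71 to -0.35, with adjusted p from 0.0805 to 0.850.

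Ep300, which encodes the CBP paralogue p300, was at 0.61, 0.60 and 0.65 in DMSO and at 0.27, -1.05 and 0.26 in TSA. Its groups did not overlap either, TSA replicate 2 was the lowest array by far, and the difference of -0.79 ± 0.38 (adjusted p = 0.505) was -0.35 without it. Kat6b, a MYST family enzyme, was at -0.12, -0.34 and -0.01 in DMSO and at -0.35, -1.63 and -0.21 in TSA (-0.57 ± 0.40, and -0.12 without TSA replicate 2). TSA replicate 2 was again the lowest array, and the groups of Kat6b overlap. Kat2b, the enzyme PCAF, was at -1.74, -2.32 and -1.74 in DMSO and at -2.21, -3.19 and -2.02 in TSA (-0.54 ± 0.37, adjusted p = 0.620). It was lower in TSA on all 3 slides, with an adjusted p of 0.243 under the block, and the difference was -0.18 without TSA replicate 2 (adjusted p = 0.738).

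The other acetyltransferases stayed closer to 0. Kat6a, a paralogue of Kat6b, gave -0.39 ± 0.26, and Kat2a, the enzyme GCN5 of the SAGA coactivator, gave -0.07 ± 0.31. Kat5, the enzyme of the TIP60 complex, gave 0.07 ± 0.36, Kat7, which acetylates histones at replication origins, 0.10 ± 0.21, and Kat8, which acetylates histone H4 at lysine residues, 0.04 ± 0.27. The signs of Kat5 and Kat8 turned with median centring and that of Kat2a when TSA replicate 1 or 3 was left out. For both bromodomain readers the 95% interval lay inside 1 on both sides. Brd2 gave 0.05 ± 0.21 (95% interval -0.45 to 0.55). Brd3 was at 4.01, 3.76 and 3.68 in DMSO and at 3.56, 3.13 and 3.42 in TSA, without overlap, and gave -0.45 ± 0.22 (95% interval -0.97 to 0.07, adjusted p = 0.508).

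**Figure D3:**
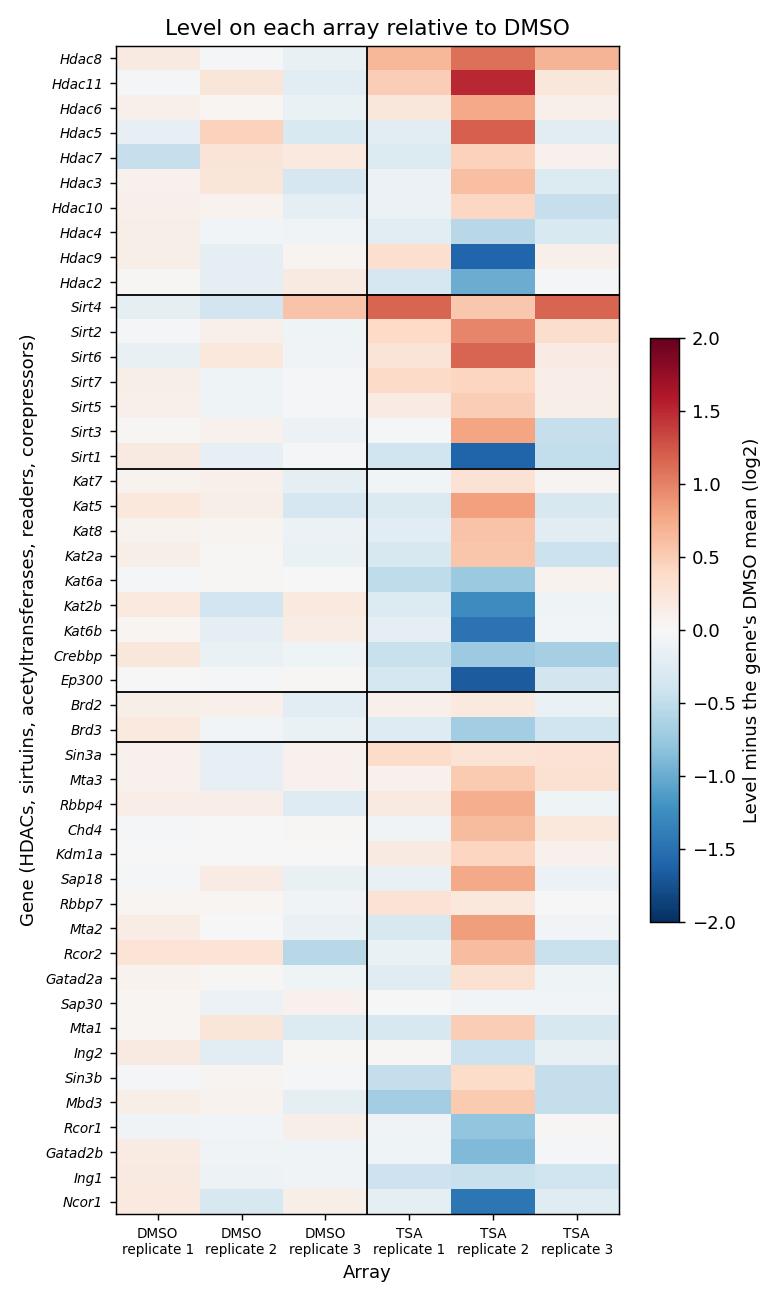
Level of the 47 genes on the 6 arrays (columns), each relative to the mean of its own DMSO arrays (colour, log2; red above, blue below), with black lines between HDACs, sirtuins, acetyltransferases, readers and corepressor subunits. The strongest colours, both red and blue, stand in the column of TSA replicate 2, where Hdac9 and Ep300 are among the lowest and Hdac11 and Hdac5 among the highest.

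The differences of the corepressor subunits ran from -0.62 for Ncor1 to 0.31 for Sin3a, with a median of -0.01 over 19 genes. For 16 of them (84.2%, against 47.5% of all tested genes) the 95% interval lay inside 1 on both sides. An unadjusted p under 0.05 was seen for 0 without the block (14.9% of all tested genes) and for 1, Ncor1, with it (5.26%, against 22.9%). In the Sin3 complex, the scaffold gene Sin3a was at 1.62, 1.37 and 1.62 in DMSO and at 1.89, 1.81 and 1.82 in TSA, without overlap (0.31 ± 0.19, adjusted p = 0.600). Its paralogue Sin3b gave -0.20 ± 0.28, Sap18 0.16 ± 0.30 and Sap30 -0.04 ± 0.18.

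The PHD finger genes Ing1 and Ing2 tether Sin3 to methylated histone H3. Ing1 was at 4.66, 4.38 and 4.42 in DMSO and at 4.07, 4.03 and 4.09 in TSA. All TSA arrays lay below all DMSO arrays, and the difference of -0.42 ± 0.19 (1.34-fold higher in DMSO, 95% interval -0.88 to 0.03, adjusted p = 0.468) had the smallest p in the class without the block, where Ncor1 had it with the block. Its other probe gave -0.43, and TSA replicate 2 did not stand apart in it (-0.41 without that array). Ing2 gave -0.19 ± 0.22.

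In NuRD, the remodelling ATPase gene Chd4 gave 0.26 ± 0.24 and the scaffold genes Mta1, Mta2 and Mta3 gave -0.05 ± 0.30, 0.15 ± 0.33 and 0.30 ± 0.21. Mbd3, which holds the complex together, gave -0.22 ± 0.35, and the linker genes Gatad2a and Gatad2b gave -0.01 ± 0.22 and -0.34 ± 0.29. The histone chaperone genes Rbbp4 and Rbbp7, shared by Sin3 and NuRD, gave 0.27 ± 0.28 and 0.16 ± 0.19. Over the 3 probes of Rbbp4 the difference ran from 0.27 to 0.61. The median over the 7 NuRD subunits was -0.01 (-0.16 without TSA replicate 2), and adjusted p ranged from 0.631 to 0.991.

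In CoREST, the demethylase gene Kdm1a was at 4.07, 4.07 and 4.06 in DMSO and at 4.24, 4.50 and 4.16 in TSA. The DMSO arrays were almost identical and all TSA arrays lay above them, yet the difference was only 0.23 ± 0.19 (adjusted p = 0.671). The scaffold genes Rcor1 and Rcor2 gave -0.28 ± 0.27 and 0.01 ± 0.37. Ncor1, the scaffold of the complex that activates HDAC3, was at 3.17, 2.66 and 3.10 in DMSO and at 2.80, 1.53 and 2.74 in TSA (-0.62 ± 0.39, adjusted p = 0.601, and 0.245 with the block). All 4 of its probes were lower, by 0.62 to 0.97. Without TSA replicate 2 the difference was -0.21.

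TSA replicate 2 stood apart from the other TSA arrays in most members. It was the highest or the lowest TSA array for 45 of the 47 genes (95.7%, against 90.6% of all tested genes), and it differed from the mean of the other TSA arrays by more than 1 for 12 members (25.5%, against 26.8%). Its deviation ran from -1.80 for Hdac9 to 1.41 for Hdac5, with Ep300, Kat6b, Ncor1, Sirt1 and Kat2b also more than 1 below, and Hdac11, Kat5, Mbd3, Sirt3 and Mta2 more than 1 above. The median SD of a member was 0.15 over the DMSO arrays, 0.44 over the TSA arrays and 0.09 over TSA replicates 1 and 3. Without this array the difference of 37 members moved by over 1.5 times or turned in sign, and 11 turned. The values not given above were 0.22 for Hdac9, -0.29 for Hdac10, -0.20 for Hdac3, 0.37 for Sirt2, 0.14 for Sirt5 and -0.25 for Sirt3. Among the acetyltransferases and readers they were -0.38 for Kat2a, -0.31 for Kat5, -0.22 for Kat6a, 0.00058 for Kat7, -0.22 for Kat8 and -0.02 for Brd2. In Sin3 and CoREST they were -0.48 for Sin3b, -0.13 for Sap18, -0.06 for Ing2, 0.13 for Kdm1a, -0.03 for Rcor1 and -0.29 for Rcor2. The NuRD genes lay on both sides of 0. Their values were 0.07 for Chd4, -0.33 for Mta1, -0.19 for Mta2, 0.19 for Mta3, -0.59 for Mbd3, -0.16 for Gatad2a and -0.06 for Gatad2b, with 0.05 for the chaperone gene Rbbp4. The dimness of the array moves with this, and its part in the result was not tested. For the 4 endoderm markers, both arrays of slide 2 lay above the other arrays of their group, by a median of 2.17 in DMSO and 2.32 in TSA. Foxa2 was at 0.30, 3.73 and 1.46 in DMSO and at -0.12, 3.45 and 0.68 in TSA. Over the 47 members, the median size of the replicate 2 deviation was 0.16 in DMSO and 0.71 in TSA. The part of the cell mixture of slide 2 in the results was not tested. Without TSA replicate 2, the median over the members was -0.13 (all tested genes -0.03), and 0 of the 47 passed, where 571 probes over the whole array were called higher and 54 lower.

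**Figure D4:**
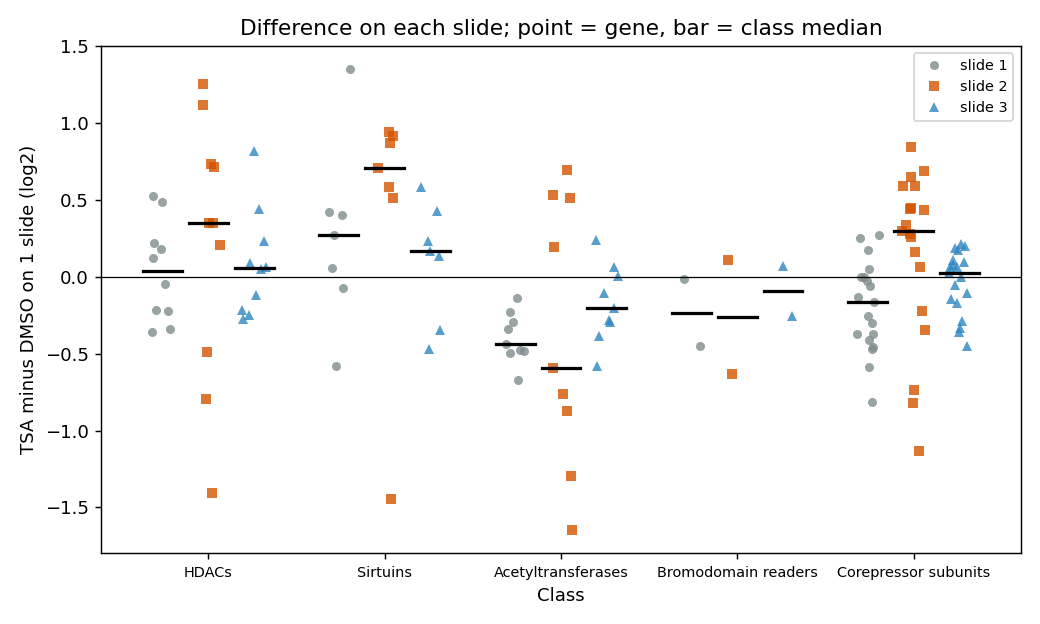
TSA minus DMSO on each slide (y axis, log2) for the genes of each class (points; circles slide 1, squares slide 2, triangles slide 3; black bars, class medians). Slide 2 has the widest scatter in every class, and the class median of the sirtuins is above 0 and that of the acetyltransferases below 0 on all 3 slides (0.27, 0.71 and 0.17 against -0.44, -0.59 and -0.20).

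The sirtuin median was above 0 and the acetyltransferase median below 0 on every slide. The sirtuin medians were 0.27, 0.71 and 0.17 and the acetyltransferase medians -0.44, -0.59 and -0.20 on slides 1, 2 and 3. On every slide 5 of 7 sirtuins were higher (71.4%, against 32.5% of all tested genes). For 4 of 9 acetyltransferases all slides were lower (44.4%, against 21.5%). The 5 MYST enzymes among them had slide medians of -0.29, 0.19 and 0.0074, with 3 higher and 2 lower means. The HDAC medians were 0.04, 0.35 and 0.06, and the corepressor medians -0.16, 0.30 and 0.03, against -0.03, 0.31 and 0.03 over all tested genes. Without TSA replicate 2 the medians were 0.21 for sirtuins and -0.22 for acetyltransferases. The difference between the classes was not tested.

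A wider list of 102 names for other genes of these systems, chosen with earlier results on these samples known, was fitted in the same way. Fam60a and Sinhcaf in it are names of the same gene, which was tested as Sinhcaf. Of 96 tested, 0 rose or fell, with or without the slide as a block, where 1.36% and 0.0551% of all tested genes did without it. An unadjusted p under 0.05 was seen for 10 (10.4%, against 14.9% of all tested genes), and for 14 with the block (14.6%, against 22.9%). The 34 other acetyltransferases and partner subunits had a median difference of -0.16, with 22 lower and 12 higher means (35.3% higher, against 58.0% of all tested genes). The 27 other acetyl-lysine readers had a median of -0.27, with 20 lower (25.9% higher). The 35 other corepressor subunits had a median of -0.15, with 20 lower (42.9% higher). Without TSA replicate 2 these 3 medians were -0.22, -0.08 and -0.11. The smallest adjusted p belonged to Brdt, the testis-specific bromodomain gene, named after its value was seen. Brdt was at -6.01, -5.62 and -5.31 in DMSO and at -3.60, -4.38 and -3.67 in TSA, above background on 5 of the 6 arrays, a difference of 1.76 ± 0.31 (adjusted p = 0.0624, and 0.0536 with the block). It passed without TSA replicate 2 (2.01, adjusted p = 0.0241) and with array weights (adjusted p = 0.00487). Brpf3, a scaffold of MYST enzymes also named after its value was seen, was next, at -0.85 ± 0.18. It likewise passed without TSA replicate 2 (-0.86, adjusted p = 0.0465) and with array weights (adjusted p = 0.0120). With array weights Epc1 (-0.78, adjusted p = 0.0367), Msl1 (-0.86, 0.0396), Zmynd11 (-0.78, 0.0429) and Mllt3 (0.77, 0.0394) passed as well. That fit called 1348 of all 28160 tested probes higher and 299 lower.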

How the data were processed

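Per the file headers, the deposited intensity values come from Agilent Feature Extraction (version 10.7, per the submitters' processing notes), which background-subtracted and detrended the signal within each array without scaling between arrays. The 0 or 1 quality flags of other columns came with them. The authors' series table holds log2 values whose scaling is not given in the sources used here, and served as an alternative. Control and outlier spots were left out. The 75th percentile of log2 processed signal over the non-control spots was subtracted per array and spots of a probe were averaged.

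Probes well above background on at least 3 of 6 arrays (28160 of 41174) were tested with limma 3.58.1 in R 4.3.3 (lmFit, eBayes, two-sided; treatment only), with Benjamini-Hochberg adjustment over all of them. P-values of this fit measure the spread of arrays within each group over 3 separate experiments, per the labels. Only the fit with the slide as a block removes what both arrays of an experiment share. Probes were named by RefSeq accession (27479 matched 1 gene), and a gene is its tested probe with the highest mean. Probe sequences were not used, so binding to related transcripts was not checked. The array header names another genome build than the RefSeq tables, so only promoter windows carry positions.

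Replicate numbers are slide numbers. Deviations of same-slide arrays from their group means correlated at 0.484, 0.614 and 0.585 (other pairs -0.568 to 0.0917), so the numbers pair the samples. The members and lists were chosen with earlier results of these data known. Values per array are given for members past the threshold, the 6 largest differences in each direction, the smallest p in each class, members whose probes differ in sign with p under 0.05 and members not measured; Hdac2, Hdac4, Sin3a and Kdm1a were added after their values were seen. Only the fit without the slide as a block was tested on simulated data, which held no slide pairing and no array set apart like TSA replicate 2. Python 3.11.15, numpy 2.4.6, pandas 2.3.3 and matplotlib 3.10.9 were used. Alternatives were normexp (offset 50, on median spot signals, in place of mean signals) with quantile normalization, quantile normalization, median centring, the authors' table, 2 filters, the slide block, trend with robust moderation, outlier spots kept, array weights, arrays or slide 2 left out, single slides and the mean over probes.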

Additional observations from a re-analysis of the deposited data

How the results depend on the processing

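With 3 arrays per group the median 95% interval of a member reached 0.66 on either side, and 0.55 with the slide as a block. This limits what could be called. The count of members higher in TSA was 0 in every fit except with array weights, where it was 2 of 47 (Hdac8 and Sirt4). That fit called 1348 of all 28160 tested probes higher. The count of members lower was 0 in all fits. The slide as a replicate block moved the probes called higher from 259 to 618 and lower from 10 to 41, and changed no member's call. Probes called higher numbered 1348 with array weights (299 lower), 142 with the authors' table, 133 with median centring, 132 with normexp, 148 with quantile normalization, 56 with no filter (0 lower), and 0 without both arrays of slide 2 (0 lower, 5006 at an unadjusted p under 0.05). They ran from 0 to 571 higher and 0 to 54 lower when 1 array was left out, with 0 for each array except TSA replicate 2 (0 called by limma, 2006 to 3327 at an unadjusted p under 0.05). The member median of 0.04 was 0.34 on slide 2 alone and ran from -0.16 to 0.15 under the other alternatives, so its sign is not settled.

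Of the 47 genes, 30 kept their sign in every fitted alternative, and 17, none past 0.38 in size, turned it in at least 1. With array weights the turned values were -0.18 (Hdac3), -0.14 (Hdac5), -0.024 (Hdac7), 0.15 (Hdac9), -0.26 (Sirt3), -0.28 (Kat5), -0.20 (Kat8), -0.031 (Brd2), -0.28 (Rcor2), -0.15 (Mta2) and -0.10 (Sap18). With median centring they were -0.027 (Hdac3), -0.0026 (Hdac7), -0.023 (Kat5), -0.055 (Kat8), -0.040 (Brd2) and -0.081 (Rcor2). The authors' table gave -0.035 (Kat8), -0.011 (Brd2) and -0.072 (Rcor2), normexp -0.022 (Kat8), -0.049 (Rcor2) and 0.0014 (Sap30), and quantile normalization -0.046 (Rcor2). Without slide 2 they were -0.077 (Hdac3), 0.14 (Hdac9), -0.21 (Sirt3), -0.24 (Kat5), -0.20 (Kat8), -0.15 (Rcor2), -0.19 (Mta2) and -0.052 (Sap18). With 1 array left out, the ranges were -0.20 to 0.24 for Hdac3, -0.21 to 0.50 for Hdac5, -0.14 to 0.27 for Hdac7, -0.74 to 0.22 for Hdac9, -0.29 to 0.15 for Hdac10, -0.25 to 0.37 for Sirt3, -0.38 to 0.12 for Kat2a, -0.31 to 0.27 for Kat5, -0.22 to 0.17 for Kat8, -0.049 to 0.15 for Brd2, -0.29 to 0.24 for Rcor2, -0.33 to 0.084 for Mta1, -0.19 to 0.39 for Mta2, -0.59 to 0.018 for Mbd3, -0.16 to 0.11 for Gatad2a, -0.13 to 0.32 for Sap18 and -0.096 to 0.0057 for Sap30. The causes were not tested.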
